A study of Mus musculus with 4 samples.

Results

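Chromatin accessibility was examined around 7 mouse genes of the TALE homeodomain class: *Meis1*, *Meis2*, *Meis3*, *Pbx2*, *Pbx3*, *Pknox1* and *Pknox2*. A region belonged to a gene when the transcription start nearest to its centre, among protein-coding genes, was a start of that gene, or when its centre lay within 2.5 kb of one. By this rule 103 of 89378 regions in 2 lists were assigned, 54 of 42613 in the earlier list (E9.5) and 49 of 46765 in the later one (E10.5). The genes were a chosen list and no accessibility value entered the rule.

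TALE proteins carry a homeodomain with 3 additional amino acids in its first loop. PBX proteins pair with HOX proteins and with MEIS or PKNOX (also called PREP) proteins, and MEIS and PKNOX proteins help PBX proteins to stay in the nucleus. In the limb bud *Meis1* and *Meis2* are known as proximal genes: retinoic acid, which is made in the trunk, promotes their expression, and FGF signals from the apical ectodermal ridge keep it out of the distal mesenchyme.

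The data are ATAC-seq, in which a transposase inserts sequencing adapters into open chromatin, from wild-type mouse embryos of the NMRI strain. The E9.5 group had 2 replicates, each the forelimb pair of 1 embryo with the adjoining piece of trunk, and its protocol gives E9.75. The E10.5 group also had 2 replicates of 1 embryo each, described as forelimb pairs, although a tissue label adds hindlimb buds. No embryo of either group carried a mutation or received a treatment. Stage and the presence of trunk tissue cannot be told apart in any value below. The authors combined the replicates into 1 list of regions per stage, so the stage differences given here lack a replicate error and none was tested. Intervals are 95% Wilson intervals, which cover counting error only and treat regions as independent. In such bulk samples, fewer cells with an open region and less opening per cell cannot be told apart.

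Each region carries a score, 10 times the negative log10 of its best p-value in peak calling. Scores grow with sequencing depth, which is unknown here, so most levels compared between the lists are given with the score percentile within the same list. Where scores of both lists stand alone, their difference cannot be told apart from one in depth. Regions with an overlap of 1 bp or more between the lists were called shared, and all others stage-specific. A promoter-proximal region has its centre no more than 2.5 kb from a protein-coding start, and all others are distal. Distances are counted from the most upstream start of the gene, negative upstream and positive in the direction of transcription.

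Markers of the sampled tissues had open promoters in both lists. All 6 limb mesenchyme markers (*Prrx1*, *Prrx2*, *Lhx2*, *Lhx9*, *Tbx5* and *Hand2*) and all 9 trunk markers (*Pax1*, *Pax3*, *Pax9*, *Meox1*, *Meox2*, *Tcf15*, *Uncx*, *Foxc2* and *Myf5*) had a promoter-proximal region at each stage. So did 13728 of all 22380 protein-coding genes. The trunk markers had one also at E10.5, where no trunk was described, so an open promoter alone does not mark a tissue. Those of *Tbx5* were weak, with best scores of 89.9 and 74.2 (percentiles 4.11 and 1.37). The median percentile of the best promoter scores went from 76.4 at E9.5 to 91.7 at E10.5 for the limb markers, and from 71.6 to 52.9 for the trunk markers. Single markers went the other way. *Tbx5* was lower at E10.5, and the best promoter scores of *Pax1* (569 to 666), *Meox2* (1239 to 1382) and *Tcf15* (809 to 854) were higher. Of the regions of the trunk markers, 35 of 83 (42.2%) were E9.5-specific, and 8 of 39 (20.5%) for the limb markers, beside 29.9% of all E9.5 regions. In the E10.5 list, 25 of 76 (32.9%) and 24 of 56 (42.9%) were E10.5-specific, beside 35.0% of all. Of the hindlimb markers, *Tbx4* had a promoter-proximal region in both lists, whereas *Pitx1* had one in the E9.5 list only. The part of the trunk in the differences below was not tested.

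The sequences shown here are the central 300 bases of the strongest regions that carry the stage comparison in each family. Shared distal regions were picked by their score in the E9.5 list, and others can be stronger at E10.5. Capitals mark matches, on either strand, to TGACAG, the core bound by MEIS and PKNOX proteins, or to TGATTNAT, a core bound by PBX together with HOX proteins. The first is the strongest distal region of the Meis genes at E9.5, which was open at both stages.
Meis2 region 206 kb downstream, shared (chr2:115685736-115686035, plus strand of mm9): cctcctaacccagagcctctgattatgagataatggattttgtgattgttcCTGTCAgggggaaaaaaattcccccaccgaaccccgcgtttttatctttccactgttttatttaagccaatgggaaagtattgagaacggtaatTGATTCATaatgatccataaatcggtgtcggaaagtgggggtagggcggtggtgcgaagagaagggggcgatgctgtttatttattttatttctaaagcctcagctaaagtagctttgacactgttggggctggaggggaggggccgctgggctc
It lies just past the 3′ end of *Meis2* and holds both cores, the first on the minus strand. The next pair are the highest-scoring stage-specific regions of the Meis genes, one in an intron of *Meis2* and one far upstream of *Meis1*.
Meis2 intronic region, E9.5-specific (chr2:115834933-115835232, plus strand of mm9): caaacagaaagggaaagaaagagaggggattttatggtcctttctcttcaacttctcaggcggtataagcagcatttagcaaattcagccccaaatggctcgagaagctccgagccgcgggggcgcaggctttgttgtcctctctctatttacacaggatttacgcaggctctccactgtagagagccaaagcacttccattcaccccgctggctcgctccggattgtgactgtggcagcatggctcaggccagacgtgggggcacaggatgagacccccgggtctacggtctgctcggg
Meis1 far upstream region, E10.5-specific (chr11:19324215-19324514, plus strand of mm9): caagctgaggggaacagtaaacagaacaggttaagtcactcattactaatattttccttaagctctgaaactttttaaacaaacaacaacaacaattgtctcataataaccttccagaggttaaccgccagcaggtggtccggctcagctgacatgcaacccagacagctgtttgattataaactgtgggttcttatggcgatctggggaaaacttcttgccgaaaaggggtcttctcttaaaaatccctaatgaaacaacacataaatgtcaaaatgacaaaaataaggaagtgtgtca
For the Pbx genes, the shared distal region in an intron of *Pbx3* holds 1 MEIS and PKNOX core, and the stage-specific regions of *Pbx2* and *Pbx3* hold none in the printed bases.
Pbx3 intronic region, shared (chr2:34105288-34105587, plus strand of mm9): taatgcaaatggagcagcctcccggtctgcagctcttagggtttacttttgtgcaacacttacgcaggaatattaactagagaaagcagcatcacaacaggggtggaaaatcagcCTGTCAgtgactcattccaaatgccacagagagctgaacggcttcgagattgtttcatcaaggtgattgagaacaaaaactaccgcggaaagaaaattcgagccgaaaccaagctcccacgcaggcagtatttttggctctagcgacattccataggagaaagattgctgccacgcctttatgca
Pbx2 promoter region, E9.5-specific (chr17:34728859-34729158, plus strand of mm9): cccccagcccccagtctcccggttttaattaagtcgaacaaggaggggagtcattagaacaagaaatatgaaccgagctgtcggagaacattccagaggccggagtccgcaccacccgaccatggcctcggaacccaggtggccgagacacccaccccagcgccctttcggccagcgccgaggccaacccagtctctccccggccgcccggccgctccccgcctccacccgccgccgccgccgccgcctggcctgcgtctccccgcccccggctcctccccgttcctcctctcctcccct
Pbx3 intronic region, E10.5-specific (chr2:34144119-34144418, plus strand of mm9): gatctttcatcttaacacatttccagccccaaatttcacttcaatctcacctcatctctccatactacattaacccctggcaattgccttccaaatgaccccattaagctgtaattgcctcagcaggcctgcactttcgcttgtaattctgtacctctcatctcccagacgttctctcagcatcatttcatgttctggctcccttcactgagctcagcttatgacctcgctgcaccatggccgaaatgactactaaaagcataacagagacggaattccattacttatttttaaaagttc
For the Pknox genes, all 3 regions lie in introns of *Pknox2* and hold neither core in the printed bases.
Pknox2 intronic region, shared (chr9:36900782-36901081, plus strand of mm9): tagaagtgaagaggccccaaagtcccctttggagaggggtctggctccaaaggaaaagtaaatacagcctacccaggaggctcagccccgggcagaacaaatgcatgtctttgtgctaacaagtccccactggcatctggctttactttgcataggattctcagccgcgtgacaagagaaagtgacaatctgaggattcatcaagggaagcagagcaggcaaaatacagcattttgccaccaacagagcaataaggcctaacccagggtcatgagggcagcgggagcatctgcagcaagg
Pknox2 intronic region, E9.5-specific (chr9:36909002-36909301, plus strand of mm9): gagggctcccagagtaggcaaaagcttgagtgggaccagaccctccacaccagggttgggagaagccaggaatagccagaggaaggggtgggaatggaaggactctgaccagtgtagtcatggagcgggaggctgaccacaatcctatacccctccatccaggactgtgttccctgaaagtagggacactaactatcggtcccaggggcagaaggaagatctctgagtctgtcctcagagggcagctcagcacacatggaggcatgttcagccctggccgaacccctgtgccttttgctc
Pknox2 intronic region, E10.5-specific (chr9:36929625-36929924, plus strand of mm9): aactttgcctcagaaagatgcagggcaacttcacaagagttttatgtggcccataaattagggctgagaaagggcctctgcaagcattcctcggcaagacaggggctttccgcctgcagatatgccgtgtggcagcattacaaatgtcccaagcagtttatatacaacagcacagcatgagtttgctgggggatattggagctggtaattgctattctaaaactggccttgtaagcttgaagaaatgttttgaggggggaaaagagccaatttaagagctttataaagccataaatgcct

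The 7 genes differed widely in how much open chromatin was assigned to them. The E9.5 list held 21 regions of *Meis2* and the E10.5 list 20, in the 99.7th and 99.3rd percentile of all protein-coding genes with a region, for which the median was 2. *Meis1* had 10 regions in each list, and *Pknox2* had 10 and 11. *Pbx3* had 7 and 4, *Meis3* had 3 and 2, and *Pknox1* had 2 in each. *Pbx2* had a single region, at E9.5, and none later. The space that the rule gives each gene differs as well. The stretch nearest to a start of the gene was 745 kb for *Meis2*, 461 kb for *Meis1*, 339 kb for *Pbx3* and 169 kb for *Pknox2*, but 5.91 kb for *Pbx2*. Per 100 kb, *Meis2* had 2.82 regions in the earlier list and 2.68 in the later, beside 1.61 and 1.76 over all protein-coding genes, and *Pknox2* had 5.92 and 6.51. *Meis1* had 1.95 and 2.17, close to the value over all genes, and *Pbx3* had 2.06 and 1.18. In shorter stretches, *Meis3* had 8.12 and 5.42, *Pknox1* had 4.09 in each list, and *Pbx2* had 16.9 and 0.

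**Figure D1:**
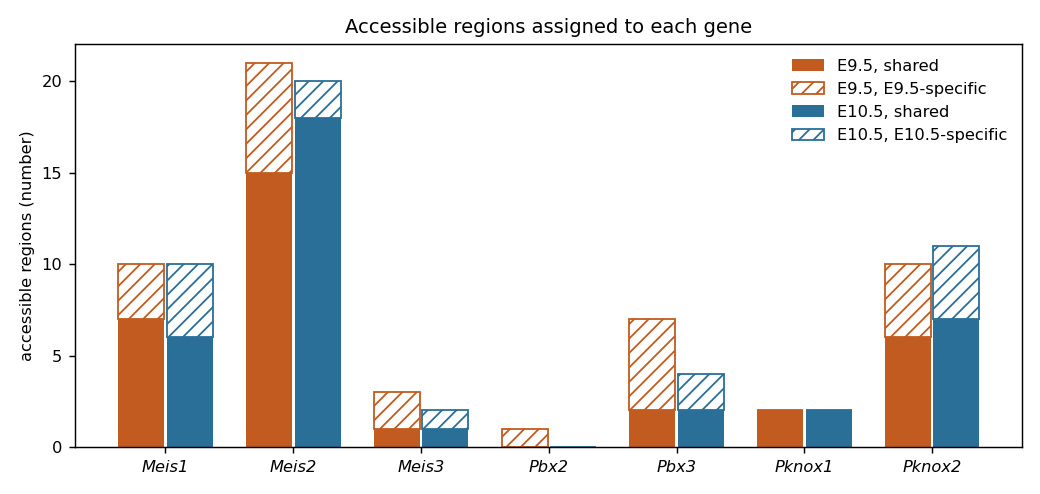
Number of accessible regions assigned to each of the 7 genes (vertical axis) in the E9.5 list (orange) and the E10.5 list (blue). Solid bars are regions shared between the lists and hatched bars are stage-specific. Meis2 had 21 and 20 regions, and Pbx2 had 1 (E9.5) and none.

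Most of these regions were distal. The promoter-proximal share was 18.5% at E9.5 (10 of 54, interval 10.4 to 30.8%) and 18.4% at E10.5 (9 of 49, 9.98 to 31.4%), below the 38.3% and 32.9% of the complete lists. With a promoter distance of 1 kb the shares were 7.41% and 16.3%, and with 5 kb they were 29.6% and 28.6%. The shares of the stages were thus close at 2.5 and 5 kb but not at 1 kb. Regions at least 100 kb from the nearest start made up 18.5% of those in the earlier list and 18.4% in the later, beside 13.0% and 19.6% of the lists.

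At E9.5, 21 of the 54 regions (38.9%, interval 27.0 to 52.2%) were E9.5-specific, while 29.9% of all E9.5 regions were. Split by class, 18 of 44 distal regions were E9.5-specific (40.9%, 27.7 to 55.6%), beside 40.3% of all distal E9.5 regions. Among promoter-proximal regions 3 of 10 were E9.5-specific (30.0%, 10.8 to 60.3%), against 13.1% of all such regions. By family, 11 of 34 Meis regions, 6 of 8 Pbx regions and 4 of 12 Pknox regions were E9.5-specific. At a reciprocal overlap of 50% the share over the 54 regions was 51.9%, where the list had 33.4%.

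At E10.5, 13 of the 49 regions (26.5%, interval 16.2 to 40.3%) were E10.5-specific, and 35.0% of the complete list. All 13 were distal. They made up 32.5% of the 40 distal regions (20.1 to 48.0%), beside 49.6% of all distal E10.5 regions, a gap that came with *Meis2*. Without *Meis2*, 11 of 23 distal regions (47.8%, 29.2 to 67.0%) and 37.9% of all regions were E10.5-specific. The share was 46.9% at a reciprocal overlap of 50%, where the list had 39.3%, and 16.1% when starts of all gene types were used for assignment. None of 9 promoter-proximal regions was E10.5-specific, which allows a share of up to 33.3%, and the list had 5.31%. By family, 7 of 32 Meis, 2 of 4 Pbx and 4 of 13 Pknox regions were E10.5-specific. *Meis2*, the gene with the most regions, had 2 E10.5-specific regions of 20 and 6 E9.5-specific regions of 21.

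Stage-specific regions were weaker than shared ones in both lists. The 21 E9.5-specific regions had a median score of 158 and the 33 shared ones 511, and at E10.5 the 13 specific regions had a median of 122 against 268 for the 36 shared ones. The complete lists had medians of 145 against 433 at the earlier stage and 153 against 362 at the later. Shared regions include more promoters, and among distal regions alone the list medians were closer, 144 against 211 and 154 against 227. Distal regions of the genes had 148 against 362 at E9.5 and 122 against 253 at E10.5. The E10.5-specific regions were also poor in GC, with a median of 43.5% in the bases up to 150 bp either side of the centre, close to the 44.2% of all distal E10.5-specific regions. The E9.5-specific distal regions had 49.3%, beside 50.8% in the list.

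**Figure D2:**
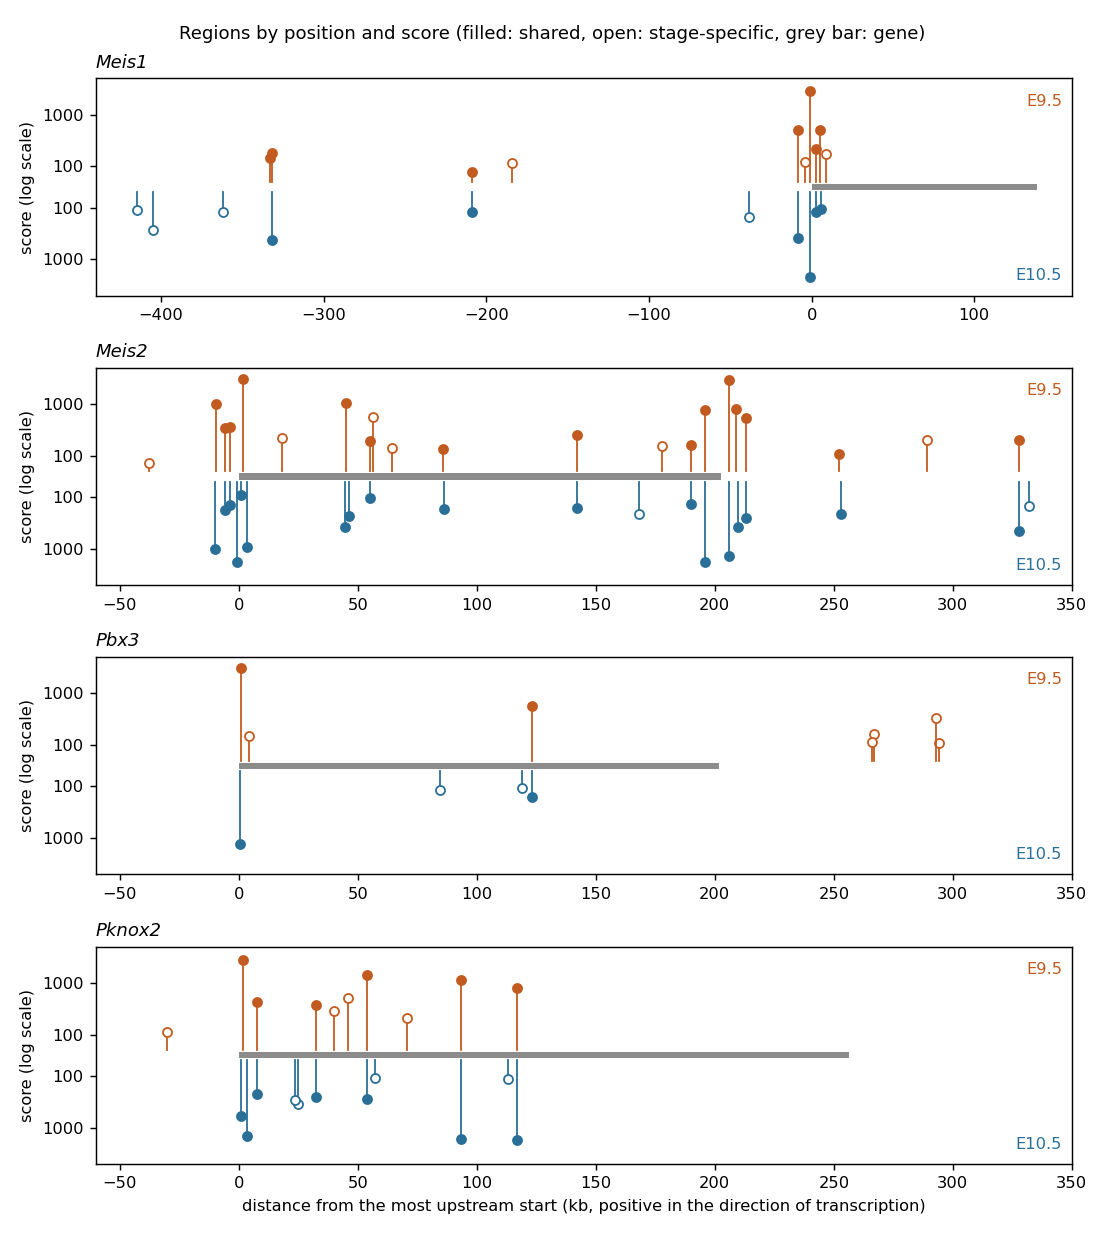
Position and score of each region of Meis1, Meis2, Pbx3 and Pknox2. The horizontal axis is the distance of the region's centre from the most upstream start in kb, the vertical axis is the score on a log scale drawn upward for E9.5 and downward for E10.5, filled points are shared regions, open points are stage-specific and the grey bar is the gene. The E10.5-specific regions of Meis1 lie between -415 and -38.3 kb, and 4 E9.5-specific regions of Pbx3 lie 266 to 294 kb downstream of the start with none opposite at E10.5.

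The promoters of 6 of the 7 genes were open at both stages, and the exception was *Pbx2*. The *Pbx2* region (chr17:34727622-34730393) was 2772 bp wide, spanned the first start and part of an intron, and scored 751 at E9.5, in percentile 74.2. The closest E10.5 region lay 2.54 kb away. *Pbx2* is 1 of 840 protein-coding genes (3.75% of 22380) with a promoter-proximal region at E9.5 only, whereas 13728 had one at both stages and 250 at E10.5 only. Of the 9176 promoter-proximal E9.5 regions that scored at least as high as that of *Pbx2*, 29 (0.316%) were E9.5-specific. This gene is short and lies among other genes, and its flanks were open at E9.5: the nearest outside regions belonged to the starts of *Notch4*, 4.22 kb away with a score of 1813, and *Agpat1*, 8.62 kb away with a score of 3100.

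The *Meis2* promoter was covered at E9.5 by 1 region of 8992 bp (chr2:115885280-115894271), the 18th widest of the 42613 regions in the list. Its score of 3100 is the value at which scores pile up at the upper end. At E10.5 the same stretch was split into 3 regions with scores of 905, 92.8 and 1763 from the downstream to the upstream side. They still covered 92.6% of it, with gaps of 27 and 55 bp, so the larger number of E10.5 regions here is a matter of splitting. The *Pknox2* promoter region of 4917 bp (score 2709) was likewise represented at E10.5 by a pair of regions scoring 1454 and 605 that covered 97.5% of it, with a gap of 125 bp.

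*Meis3*, best known from hindbrain development, had a much narrower promoter region at E10.5. At E9.5 the region was 4834 bp wide and scored 1623 (percentile 89.4), and at E10.5 it was 936 bp wide and scored 152 (percentile 30.5). E10.5 covered 19.4% of the E9.5 region, and the median over all shared promoter-proximal E9.5 regions was 90.8%. The percentile changed by -58.9, and 0.472% of all 29883 shared pairs had a lower change.

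*Meis1* had a strong main promoter at both stages and a lower rank at an internal start at E10.5. The region at the first start (chr11:18918200-18921850) went from 2872 to 2225, which are percentiles 97.4 and 97. A second promoter-proximal region, 5.35 kb inside the gene, went from 500.3 to 108 and narrowed from 3172 to 794 bp. Its percentile went from 66.3 to 12.1, a change of -54.1, and 0.823% of all pairs were lower. Another one, 8.61 kb inside, scored 176 at E9.5 and had no partner at E10.5. It was assigned through the 2.5 kb rule, since the start nearest to it is that of *Gm16140*, a gene annotated within *Meis1*.

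The remaining promoters had a similar extent at both stages. The *Pbx3* promoter region went from 3100 to 1285 (percentile 98.8 to 90.5), and that of *Pknox1* from 3100 to 1511 (98.8 to 92.8). E10.5 regions covered 93.5% and 95% of them. All 7 promoter-proximal pairs of the genes had a lower percentile at E10.5, with a median change of -6.00. Over all 14190 promoter-proximal pairs the median was -1.47, and 41.6% had a higher percentile at E10.5. As 5 of the 7 pairs started at percentiles 96.8 to 98.8, they had little room above. Among the 1270 promoter-proximal pairs that started at least as high as the *Pknox2* promoter, the median change was -0.407 and 41.7% were higher, beside -4.53 and 0 of 5 for the genes. Pairs were classed by their E9.5 region. The -4.53 is that of *Pknox2*, whose best-scoring E10.5 partner was distal, 3405 bp from the nearest start. Its promoter-proximal E10.5 region had percentile 75.9, a change of -20.9.

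**Figure D3:**
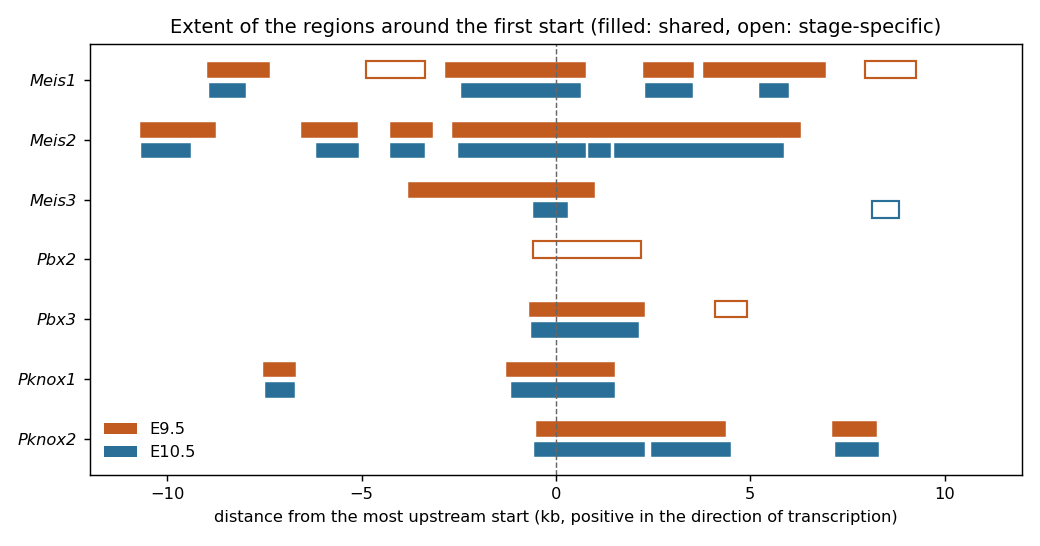
Extent of the regions within 12 kb of the most upstream start of each gene, in kb from that start, in the E9.5 list (orange, upper row) and the E10.5 list (blue, lower row). Filled boxes are shared regions and open boxes are stage-specific. The E9.5 region of Meis3 (4834 bp) faces one of 936 bp, and the Pbx2 region has no box below it. White outlines widen the gaps of 27 to 125 bp.

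The distal regions of the Meis genes moved in both directions. For *Meis2*, the strongest distal region at E9.5 was the one 206 kb downstream of the start, 2.92 kb past the 3′ end (chr2:115684561-115687208). It scored 2882 in the E9.5 list and 1372 in the E10.5 list (percentiles 97.4 and 91.5). The strongest at E10.5 was its neighbour in a *Meis2* intron at 196 kb (chr2:115694434-115696940), which went from 762 to 1803. Thus the order of these neighbours was reversed between the lists. Of the other shared regions past the 3′ end, that at 213 kb went from 542 to 253 (percentile 67.9 to 51.7). The one at 209 kb went from 813 to 385 (75.8 to 64.6). Those at 328 and 252 kb went from 197 to 444 (40.4 to 68.4) and from 110.4 to 209 (12.1 to 44.5). The region at 328 kb lies in an intron of the neighbouring gene *BC052040*, and its assignment to *Meis2* rests on distance alone.

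Upstream of *Meis2* and inside it, lower and higher ranks at E10.5 were interspersed. The region at -3.73 kb went from 360 to 145 (percentile 58.9 to 27.9), and that at -5.83 kb from 341 to 179 (57.5 to 37.9). In the gene, the region at 45.2 kb (chr2:115844690-115847989) scored 1036 at E9.5 (percentile 80.6). It overlapped 2 E10.5 regions scoring 382 and 227 (percentiles 64.4 and 47.8). The region at 85.7 kb had a higher percentile at E10.5 (23.0 to 35.5), and those at 142 and 189.8 kb had lower ones (49.6 to 33.9 and 31.0 to 24.4). The region at -9.73 kb scored 998 and 1017, and its percentile was higher at E10.5 (79.9 to 86.3). In all, 5 of the 15 *Meis2* pairs had a higher percentile at E10.5 and 10 a lower one.

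The highest-scoring E9.5-specific region of *Meis2* lay in an intron at 56.5 kb (chr2:115834370-115835794, score 567), and an E10.5 region began 0.100 kb beside it. The other E9.5-specific regions of the gene scored 73.7 to 216. At E10.5 the higher-scoring of the specific pair lay in an intron at 168 kb with a score of 214, and the other at 332 kb with 149.

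The 4 E10.5-specific regions that the nearest start assigned to *Meis1* were all upstream of it. They lay at -38.3, -362, -405 and -415 kb, all outside protein-coding genes, with scores of 149.9, 122, 266 and 112. The nearest E9.5 region was 28.6 kb or more from each. Their GC content was 38.2 to 45.2%. Between them, at -332 kb, a shared region scored 429 at E10.5 and overlapped a pair of E9.5 regions scoring 182 and 144, so the percentile was higher by 30.4 and 41.0 at E10.5. The E9.5-specific regions of *Meis1* lay at 8.61 kb in the gene, at -4.13 kb (score 123) and at -184 kb (score 116). The shared region at -8.18 kb (chr11:18926306-18927974) was the strongest distal one at E9.5, with 511 and 392 (percentiles 66.7 and 65.1).

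*Meis3* had no shared distal region. Its E9.5-specific regions, with scores of 104 and 95.8, lay at -16.3 and -21.7 kb within *Slc8a2*, and its E10.5-specific region (score 108) lay 8.48 kb inside *Meis3*.

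*Pbx3* had stage-specific regions on its far side at E9.5. Of its 7 E9.5 regions 5 were E9.5-specific, and 4 of these formed a pair of clusters 64.4 to 92.7 kb past the 3′ end of the gene (chr2:33933841-33936330 and chr2:33960884-33962903). They scored 109.7, 328, 167 and 113 (percentiles 11.8, 56.6, 33.1 and 13.3), lie outside protein-coding genes, and were at least 142 kb from any E10.5 region. The fifth, 4.50 kb inside the gene, scored 153. The shared intronic region at 123 kb (chr2:34104755-34106118), whose sequence is given with the others, went from 566 (percentile 68.7) to 159 (32.6). The E10.5-specific regions at 84.4 and 119 kb scored 118 and 106 (percentiles 16.9 and 11.2).

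*Pknox1*, a widely expressed partner of PBX proteins, had the same pair of regions at both stages. Besides its promoter, a region at -7.12 kb (chr17:31694165-31695030) went from 177 to 241. It was the only one of the 7 genes with no stage-specific region in either list.

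*Pknox2* had strong intronic regions at both stages, but in a different order. The regions at 117 kb and 93.3 kb went from 809 to 1757 (percentile 75.7 to 94.7) and from 1114 to 1678 (82.0 to 94.2), and these were the strongest distal regions of the gene at E10.5. The strongest at E9.5, at 54.0 kb (chr9:36900345-36901516), went from 1387 to 284 (86.4 to 55.6). The region at 7.66 kb went from 420 to 225 (62.5 to 47.4). Between the promoter and 93.3 kb the E9.5-specific regions lay at 40.2, 45.7 and 70.7 kb with scores of 285, 516 and 209, and a further one lay at -30.0 kb with 113. The E10.5-specific regions lay at 23.8, 25.1, 57.1 and 113 kb with scores of 287, 357, 109 and 115.

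Across the shared regions, score ranks were lower at E10.5 more often than higher. Of 33 pairs, 11 had a higher percentile at E10.5 and 22 a lower one, with a median change of -6.00 (95% interval of the median from order statistics -15.7 to 6.48). Over all 29883 pairs 50.3% were higher, with a median of 0.0873. The 26 distal pairs had a median of -6.26 and 11 were higher (42.3%), while 58.2% of all 15693 distal pairs were higher, with a median of 4.04. Spearman's rho between the scores was 0.616 over the 33 pairs and 0.758 over all pairs. These points share the same pair of lists, and some share an E10.5 partner.

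**Figure D4:**
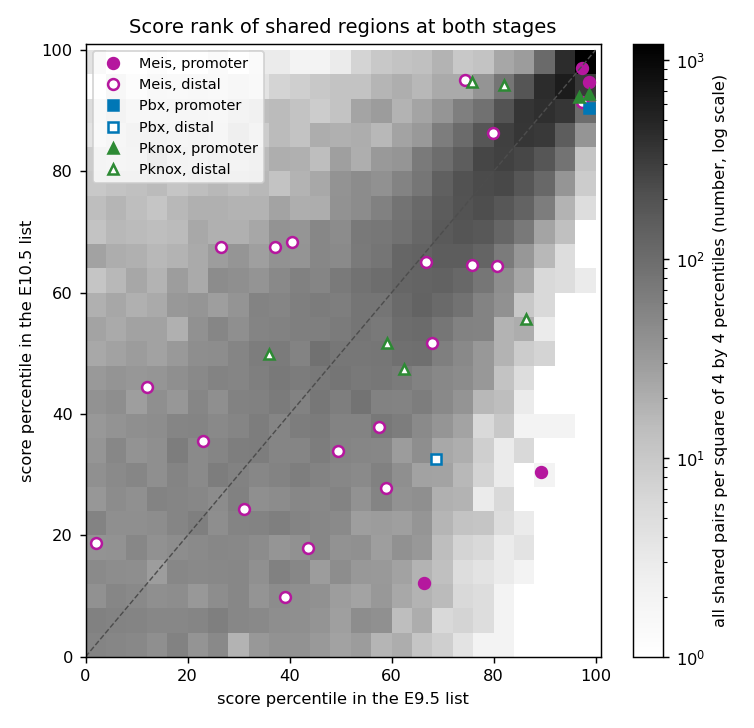
Score percentile of each shared region in the E9.5 list (horizontal axis) and of its best-scoring partner in the E10.5 list (vertical axis) for the 33 pairs of the 7 genes, over the number of all 29883 pairs in squares of 4 by 4 percentiles (grey, log scale). Filled symbols are promoter-proximal and open symbols distal by their E9.5 region, and the dashed line marks equal percentiles. All 7 filled symbols lie below the line, and those of Meis3 and of the internal Meis1 start lie farthest from it.

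The binding cores of the factors themselves were searched up to 150 bp either side of each centre, on both strands. TGACAG was found in 18 of 54 regions at E9.5 (33.3%, interval 22.2 to 46.6%) and in 10 of 49 at E10.5 (20.4%, 11.5 to 33.6%), beside 21.5% and 20.8% of the complete lists. Among distal regions alone, which are most of those of the genes, the share was 34.1% at E9.5 (21.9 to 48.9%) beside 25.4% of all distal regions, and 20.0% beside 23.8% at E10.5. Shared distal regions had the core in 12 of 26 cases at E9.5 (46.2%, 28.8 to 64.5%, list 23.7%) and in 7 of 27 at E10.5 (25.9%, 13.2 to 44.7%, list 23.1%). The window follows the centre of a region, which differs between the lists, so these shares do not compare the same bases. The shared *Meis2* region at 252 kb held TGACAG in its E9.5 window only, and the promoter-proximal *Meis1* region at 5.35 kb in its E10.5 window only. E9.5-specific distal regions had it in 3 of 18 cases (16.7%, list 27.8%). TGATTNAT was found in 8 of 54 regions at E9.5 (14.8%, 7.70 to 26.6%) and in 4 of 49 at E10.5 (8.16%, 3.22 to 19.2%), against 4.95% and 6.10% of the lists. For distal regions the shares were 13.6% (6.40 to 26.7%) beside 7.19% and 7.50% beside 8.37%. The E9.5 intervals of both cores over the distal regions held the value of all distal regions. That of TGACAG in shared distal E9.5 regions lay above its list value. The regions of the genes had a median GC content of 49.8% at E9.5 and the list 54.2%. The composite core of PBX beside MEIS or PKNOX, written as TGAT, any base and then GACAG, was in none of the 54 and none of the 49 windows, which allows shares of up to 5.56% and 6.12%. It was in 0.314% and 0.295% of the lists. A composite match with T as the free base would also match TGACAG.

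The genes with the most similar counts of shared and stage-specific regions in both lists were sought for the genes with at least 10 regions. For *Meis2*, with 15 shared and 6 specific regions at E9.5 and 18 and 2 at E10.5, the nearest was *Lmx1b*, a LIM homeodomain gene of the dorsal limb mesenchyme, with 17 and 8 and then 17 and 2 (Euclidean distance 3). *Gm12830* and *Bcor* followed at 3.16 and 3.32. For *Meis1* and *Pknox2* several genes tied at a distance of 1, among them *Disc1* and *Rora* for *Meis1*, and *Arpp21*, *Etnk1* and *Insig2* for *Pknox2*.

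The assignment by the nearest start sets where some of these loci end. At E9.5 the last region counted inside *Meis1* lay 1.66 kb from a *Meis1* start, and the next one, 3.56 kb away with a score of 420, went to *Gm16140*. When regions within the transcribed span of a gene were added as well, *Meis1* had 18 and 17 regions, of which 6 and 6 were stage-specific. *Pknox2* had 19 and 21, of which 6 and 7 were stage-specific. The counts of the other 5 genes were the same. This wider assignment was chosen after the regions had been seen.

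A list of 18 other genes held regulators of the proximal-distal axis of the limb bud, HOX partners and further TALE genes. They had 94 regions at E9.5, of which 32 were E9.5-specific (34%, interval 25.3 to 44.1%), and 106 at E10.5, of which 42 were E10.5-specific (39.6%, 30.8 to 49.1%). The complete lists had 29.9% and 35.0%, within both intervals. Of all 22380 protein-coding genes, 13728 had a promoter-proximal region in both lists, 840 in the earlier only and 250 in the later only. All 18 of the listed genes had one in the earlier list and 15 in the later. The genes without one at E10.5 were *Aldh1a2*, the main retinoic acid synthesising enzyme of the embryonic trunk, *Cyp26a1*, which degrades retinoic acid, and *Hoxa13*, a gene of the future hand. Their best promoter scores at E9.5 were 632, 213 and 128.

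The 6 retinoic acid genes had 24 E9.5-specific regions of 48 (50%, interval 36.4 to 63.6%) and 20 E10.5-specific regions of 46 (43.5%, 30.2 to 57.8%), beside the same 29.9% and 35.0% of the lists. *Rarb*, a receptor gene, held 16 of the 20. The proximal factors *Shox2*, *Emx2* and *Zbtb16* had 4 E9.5-specific regions of 19 (21.1%, 8.51 to 43.3%) and 16 E10.5-specific regions of 31 (51.6%, 34.8 to 68.0%), and *Shox2* alone went from 6 regions to 14. The other TALE genes, *Tgif1*, *Tgif2* and *Mkx*, had 2 E9.5-specific regions of 17 and 3 E10.5-specific regions of 18, and all 3 had an open promoter at both stages. The Hox partners *Hoxa9*, *Hoxa10*, *Hoxd9* and *Hoxd10* had open promoters at both stages too, with 0 specific regions of 7 at E9.5, which allows a share of up to 42.9%, and 2 of 9 at E10.5.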

How the data were processed

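ATAC-seq libraries of 2 replicates per stage were sequenced on a NextSeq 500. Per the study's methods and the submitters' processing notes, the authors aligned reads to mm9 with Bowtie 1.1.0, keeping uniquely placed reads, called peaks with MACS 1.4 without a control library, and combined the replicates with MSPC (stringent p 1e-10, weak p 1e-06). The deposited score is 10 times the negative log10 of the best p-value of a region, as set by the authors.

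The lists hold no values per replicate and no read totals, so depth and its precision are unknown. Regions were assigned with GENCODE vM1 (22380 protein-coding genes, 70064 starts) on NCBIM37, which matches mm9. Overlap, score percentiles, GC content and motifs were computed in Python 3.11.15 with numpy 2.4.6, pandas 2.3.3 and scipy 1.17.1, and the code was tested on simulated data. No test was made because each stage has 1 list. In each gene, the highest-scoring promoter-proximal, distal shared and stage-specific regions were named, along with clusters and large changes picked after their values were seen. The genes, lists and motifs were chosen with earlier results of these data known. The tried alternatives were other score limits, distance and overlap rules, start sets, promoter distances and leaving out each gene.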

Additional observations from a re-analysis of the deposited data

How the results depend on the processing

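No paired analysis was possible because the replicates were combined before deposit, and for the same reason leaving out a replicate or using the replicate number as a block was not run. Of 81 alternative values, 74 stayed within the limits set for them, 7 moved and 0 reversed. With the higher-scoring 50% of regions alone there were 27 regions at E9.5 and 23 at E10.5, fewer by construction. With starts of all gene types, 35 and 31 regions remained assigned and 16.1% of the E10.5 regions were E10.5-specific. A reciprocal overlap of 50% raised the E10.5-specific share to 46.9%, compared with 26.5% at 1 bp, and the E9.5-specific share to 51.9%, compared with 38.9%. The complete lists had 39.3% and 33.4% at this setting, so the E10.5 share lay above instead of below its list. A promoter distance of 1 kb lowered the promoter-proximal share at E9.5 to 7.41%. Leaving out each gene in turn, or adding regions within the transcribed span (chosen after seeing the data), moved no share beyond its counting interval, but without Meis2 the E10.5-specific share was 37.9%, above instead of below the 35.0% of the list. The limits are the absence of replicate values, the unknown depth, the pile-up of scores at 3100 and the trunk tissue in the E9.5 samples. The pile-up hides differences among the strongest promoters.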
